A study of Mus musculus with 6 samples.

Results

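The genes described here are 10 exopeptidases and their close relatives: the carboxypeptidase family members Cpxm1, Cpxm2, Cpe, Cpd, Cpm and Cpq, the dipeptidyl carboxypeptidase Ace, the dipeptidyl peptidases Dpp4 and Fap, and the aminopeptidase Anpep. They were chosen by symbol, and each symbol matched 1 Ensembl identifier among the 41388 genes of the count files. The 6 RNA-seq libraries came from mammary tumors of female MMTV-PyMT mice (strain FVB/N-TgN(MMTVPyVT)634Mul/J), whose mammary epithelium expresses the polyoma middle T antigen from the MMTV promoter and forms invasive, metastasizing carcinomas. All libraries carry this transgene, and no library from normal gland was analysed here. TICs are CD24+CD90+CD45- cells (3 libraries), and the comparison group, the non-CD24+CD90+ tumor cells (3 libraries), consists of CD45- cells negative for either or both markers. The series description calls this second group CD24-CD90-, whereas the methods collect cells that lack at least 1 of the markers. Each library pools RNA of 4 cell sorts, a group draws on 12 mice, and the study used mice of 12 weeks for its sorts after comparing ages. Whether the pools of both groups came from the same mice is not stated, and the tests below treat them as unpaired. The comparison asks whether these peptidases differ in RNA level between the tumorigenic and the less tumorigenic cells.

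Exopeptidases remove residues from the ends of peptides and so activate or inactivate hormones, chemokines and kinins. Ace cuts dipeptides from the C-terminus of angiotensin I and bradykinin and is typically found on endothelium. Dpp4 and Fap are related serine peptidases of the cell surface that cut after proline, and Fap can also cut within denatured collagen and is used as a marker of activated fibroblasts in carcinomas. Cpe, Cpd and Cpm remove basic residues from the C-terminus, Cpe in secretory granules, Cpd in the trans-Golgi network and Cpm at the cell surface. Cpxm1 and Cpxm2 are secreted relatives with a discoidin domain that lack residues thought to be required for catalysis, and Anpep (aminopeptidase N, CD13) trims N-terminal residues at the surface of many mesenchymal, myeloid and epithelial cells.

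The promoters of the 3 genes that passed the test below (Ace, Cpxm1 and Cpxm2) are shown as the 250 bases before the RefSeq start on GRCm38.p6, 5′ to 3′ on the strand of the gene. Capitals mark matches on either strand to the promoter elements searched. TATAAA is the core of the TATA box. The CCAAT element is bound by the factor NF-Y, and GGGCGG by Sp factors. Zeb and Snail factors bind the E-box CACCTG, and the AP-1 element was searched as TGANTCA. Ace has a second RefSeq start inside the gene, the start of the shorter testis form, which is shown for contrast.
Ace, chr11:105967698-105967947, plus strand: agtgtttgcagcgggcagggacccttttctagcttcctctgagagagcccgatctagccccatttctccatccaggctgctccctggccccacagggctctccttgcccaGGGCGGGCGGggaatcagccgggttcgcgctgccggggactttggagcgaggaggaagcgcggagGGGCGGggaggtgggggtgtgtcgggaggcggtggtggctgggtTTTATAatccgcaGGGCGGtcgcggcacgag
Ace, second start, chr11:105974939-105975188, plus strand: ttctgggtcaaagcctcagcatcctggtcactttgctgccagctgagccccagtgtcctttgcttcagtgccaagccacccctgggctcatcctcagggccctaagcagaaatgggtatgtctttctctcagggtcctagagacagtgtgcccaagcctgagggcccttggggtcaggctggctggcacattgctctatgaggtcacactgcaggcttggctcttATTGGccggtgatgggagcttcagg
Cpxm1, chr2:130397630-130397879, minus strand: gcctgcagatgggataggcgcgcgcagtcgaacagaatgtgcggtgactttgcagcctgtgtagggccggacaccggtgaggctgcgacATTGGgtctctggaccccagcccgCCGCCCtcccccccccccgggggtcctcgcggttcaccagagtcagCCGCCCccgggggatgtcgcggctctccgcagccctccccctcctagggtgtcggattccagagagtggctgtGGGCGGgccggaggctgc
Cpxm2, chr7:132154742-132154991, minus strand: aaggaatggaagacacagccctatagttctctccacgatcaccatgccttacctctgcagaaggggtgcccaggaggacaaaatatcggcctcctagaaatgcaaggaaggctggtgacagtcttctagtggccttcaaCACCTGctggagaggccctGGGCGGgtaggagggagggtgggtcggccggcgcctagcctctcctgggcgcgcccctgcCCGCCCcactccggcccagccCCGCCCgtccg
The windows of Ace, Cpxm1 and Cpxm2 had a GC content of 67.2%, 70.8% and 64.0%, against a median of 52.4% over all 32851 windows, while the second Ace window had 58.0%. GGGCGG was matched 4 times upstream of Ace (a pair of these matches overlap), 3 times upstream of Cpxm1 and 3 times upstream of Cpxm2, and not in the second Ace window. Only Ace held TATAAA among these 4 windows, at position -31 from the start, and only Cpxm2 held CACCTG, at position -111. RefSeq windows were found for 7 of the 10 genes, 8 windows in all. GGGCGG was present in 6 of these 8 and in 32.7% of all windows, CCAAT in 3 of 8 and in 33.8%, TATAAA in 2 of 8 and in 12.4%, CACCTG in 1 of 8 and in 17.2%, and TGANTCA in 0 of 8 and in 6.7%. These matches describe the letters in the windows and were not tested for binding.

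Total counts ranged from 6781239 to 8450038 in the non-CD24+CD90+ tumor cells (the comparison group below) and from 8114933 to 9100552 in TICs, so that 3 counts correspond to 0.33 to 0.44 CPM. Genes predicted at 20 to 60 counts from the other libraries of the group were without any count in 19.1% to 39.7% of cases per library, most often in TIC replicate 3. This library also stood apart on the first principal component of all genes tested, at 165.3 against -56.9 to -5.5 for the other libraries. The luminal marker Epcam, which was not used in the sort, was abundant in all libraries (1115 to 1547 CPM). Ptprc, which encodes the CD45 used to exclude leukocytes, had 33 counts in replicate 1 of the comparison group and 0 counts elsewhere. Neither gene of the positive sort markers passed the test: Cd24a had a log2 fold change of -0.34 (adjusted p = 0.98 from edgeR's exactTest) and Thy1 of 1.25 (adjusted p = 0.35).

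All 10 genes had counts, and 9 passed the expression filter of more than 1 CPM in at least 3 libraries. In edgeR's exactTest 3 of the 9 were higher in TICs at an adjusted p below 0.1, namely Cpxm2, Ace and Cpxm1, and 0 were lower. Over all 12192 genes tested, 1.36% were called higher and 0.189% lower, or 1.55% in either direction. An unadjusted p below 0.05 was reached by 5 of the 9 genes and by 7.85% of all genes tested. The 3 calls depended on how the spread of each gene was estimated: with tagwise dispersions estimated without a trend (trend "none" in edgeR, in place of the default), exactTest called 0 of the 9 genes and 0.984% of all genes tested. In that fit the adjusted p was 1.0 for each of the 9 genes, 0 of them had an unadjusted p below 0.05, and the SE of Ace, Cpxm1 and Cpxm2 was 0.83, 0.81 and 0.82. The fit without a trend was made first, and the default was taken as the reported fit with the values of both known. These 3 genes also stand in the study's own list of differing genes, from the same libraries, so that their direction is no independent evidence. In 4 of the 9 genes (Cpxm1, Cpxm2, Ace and Fap) every TIC library was above every other library, which held for 7.69% of all genes tested, and in 1 (Cpd) every TIC library was below, which held for 7.55%. The median log2 fold change of the 9 genes was 0.13, beside -0.01 over all genes tested. Expression is given as TMM-normalized CPM, the read count relative to library size after edgeR's correction for composition. In sorted pools such as these, fewer cells of a type and less RNA per cell cannot be told apart.

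**Figure D1:**
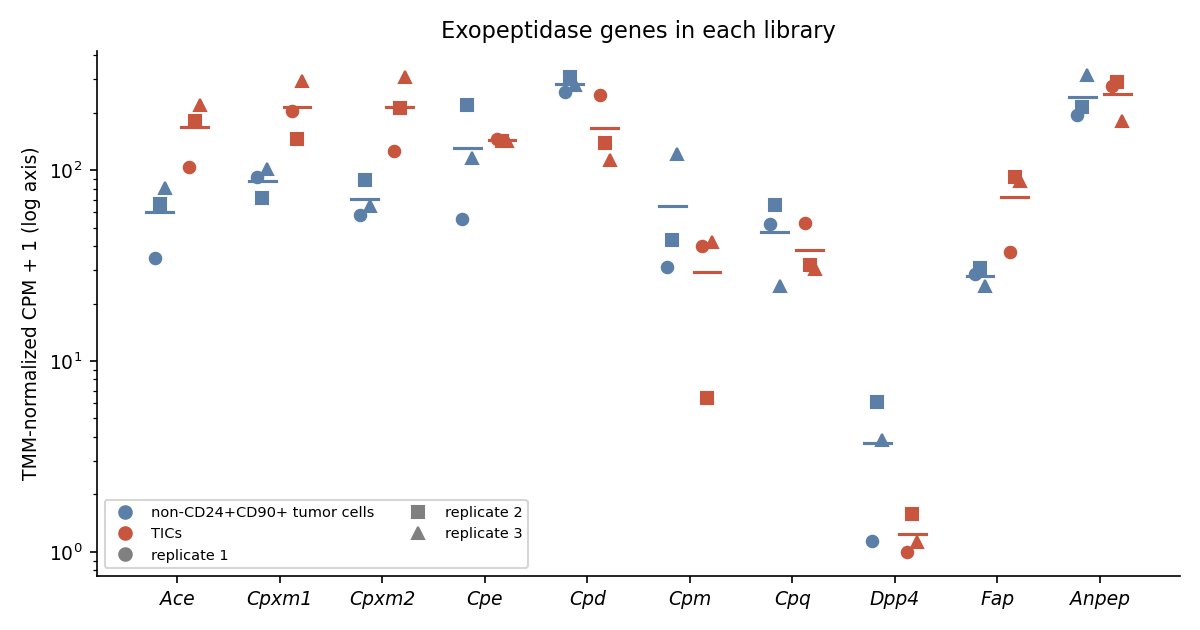
TMM-normalized CPM plus 1 (log axis) of the 10 genes in each library, with blue for non-CD24+CD90+ tumor cells, red for TICs, 1 symbol shape per replicate and bars for group means. Ace, Cpxm1, Cpxm2 and Fap are higher in every TIC library, Cpd is lower in every TIC library, and Dpp4 lies near the bottom in all 6.

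Cpxm2 (ENSMUSG00000030862, chromosome 7 of GRCm38, 132032687 to 132154739) had 56.9, 87.9 and 63.8 CPM in the comparison group (replicates 1 to 3) and 125, 210 and 307 CPM in TICs. Its lowest TIC library was above the highest comparison library, and the TICs spread more widely, with a coefficient of variation of 42.6% against 23.4%. The group means were 69.6 ± 16.3 and 214 ± 91.0 CPM (SD, n = 3 each). On the log2 scale the difference was 1.62 (standard error, SE, 0.37, exactTest adjusted p = 0.0060), and this was the largest of the 9 genes tested. In the annotation Fgfr2 on the same strand and an antisense gene overlap Cpxm2, and the strand setting of the counting was not given in the sources used here. Cpxm1 (ENSMUSG00000027408, chromosome 2, 130390775 to 130397574), which no other annotated gene overlaps, had 91.2, 70.0 and 99.8 CPM in the comparison group and 204, 145 and 291 CPM in TICs. The groups did not overlap, with means of 87.0 ± 15.4 and 213 ± 73.6 CPM (SD, n = 3 each), and the log2 fold change was 1.29 (SE 0.34, exactTest adjusted p = 0.027). TIC replicate 2 was the lowest TIC library for Cpxm1, whereas TIC replicate 1 was the lowest for Cpxm2. Per kilobase of exon the ratio of Cpxm1 to Cpxm2 ranged from 1.51 to 3.05 in the comparison group and from 1.31 to 3.11 in TICs, and these ranges overlapped.

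The catalytically active carboxypeptidases of the same family did not pass the test. Cpe (chromosome 8, 64592542 to 64693054), the prohormone-processing carboxypeptidase E, had 54.6, 219 and 115 CPM in the comparison group and 145, 141 and 141 CPM in TICs. The TIC libraries thus lay within the wide range of the comparison group, whose highest value was 4.01 times its lowest, and the log2 fold change was 0.13 with a 95% interval from -0.69 to 0.96. Cpd (chromosome 11, 76778424 to 76847018), the carboxypeptidase of the trans-Golgi network, had 256, 308 and 277 CPM in the comparison group and 246, 138 and 112 CPM in TICs. Every TIC library was below the comparison group, and TIC replicate 1 lay just below its lowest library. The log2 fold change of Cpd was -0.76 (SE 0.34, unadjusted p = 0.025, adjusted p = 0.47 from edgeR's exactTest). Cpm (chromosome 10, 117629500 to 117687352), the membrane-anchored carboxypeptidase M, had 30.1, 41.9 and 120 CPM in the comparison group and 38.9, 5.36 and 40.9 CPM in TICs. The groups overlapped, with replicate 3 of the comparison group and TIC replicate 2 at the extremes, and the log2 fold change was -1.17 with a 95% interval from -2.53 to 0.18. Cpq (chromosome 15, 33083129 to 33594552), a secreted peptidase of plasma and lysosomes outside this family, had 50.9, 64.9 and 23.6 CPM in the comparison group and 51.9, 30.8 and 29.2 CPM in TICs. Its groups overlapped as well, and the log2 fold change was -0.32 with a 95% interval from -1.37 to 0.73.

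Ace (ENSMUSG00000020681, chromosome 11, 105967945 to 105989964) had 33.6, 65.2 and 79.4 CPM in the comparison group and 102, 181 and 217 CPM in TICs. The highest comparison library lay below the lowest TIC library, with means of 59.4 ± 23.5 and 167 ± 58.8 CPM (SD, n = 3 each), and the log2 fold change was 1.49 (SE 0.40, exactTest adjusted p = 0.033). Replicate 1 of the comparison group was the lowest for Ace, and without it the log2 fold change was 1.22 (adjusted p = 0.30). An antisense gene overlaps Ace in the annotation, and counts per gene do not separate the somatic from the testis form.

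Fap (ENSMUSG00000000392, chromosome 2, 62500943 to 62574075) had 27.4, 29.7 and 23.6 CPM in the comparison group and 36.3, 91.4 and 86.2 CPM in TICs. The comparison group was narrow (coefficient of variation 11.5%), and TIC replicate 1 lay closer to it than to TIC replicates 2 and 3. Although the groups did not overlap and the log2 fold change was 1.40 (SE 0.49), Fap missed the threshold (unadjusted p = 0.0049, adjusted p = 0.20 from edgeR's exactTest). Without TIC replicate 1 the adjusted p was 0.026, whereas with any other library left out it was 0.47 to 0.65 (edgeR's exactTest). Dpp4 (ENSMUSG00000035000, chromosome 2, 62330073 to 62412231), the relative of Fap that inactivates incretins and chemokines, lies 88.7 kb from it on the same strand, with 1 protein-coding gene (Gcg) between them. Dpp4 had 1, 45 and 20 counts in the comparison group and 0, 5 and 1 counts in TICs, and it did not pass the filter. In replicate 1 of the comparison group it was as low as in the TICs. With 0 counts common for genes predicted at 20 to 60 counts, no difference was detectable in these libraries. When all genes with a count were tested, Dpp4 had an adjusted p of 1.0 (edgeR's exactTest).

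Anpep (ENSMUSG00000039062, chromosome 7, 79821803 to 79861059) differed least between the groups among the 9 genes tested. It had 193, 212 and 316 CPM in the comparison group and 276, 290 and 179 CPM in TICs. The highest and the lowest library belonged to different groups but the ranges overlapped almost completely, and the log2 fold change was 0.05 with a 95% interval from -0.59 to 0.68.

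**Figure D2:**
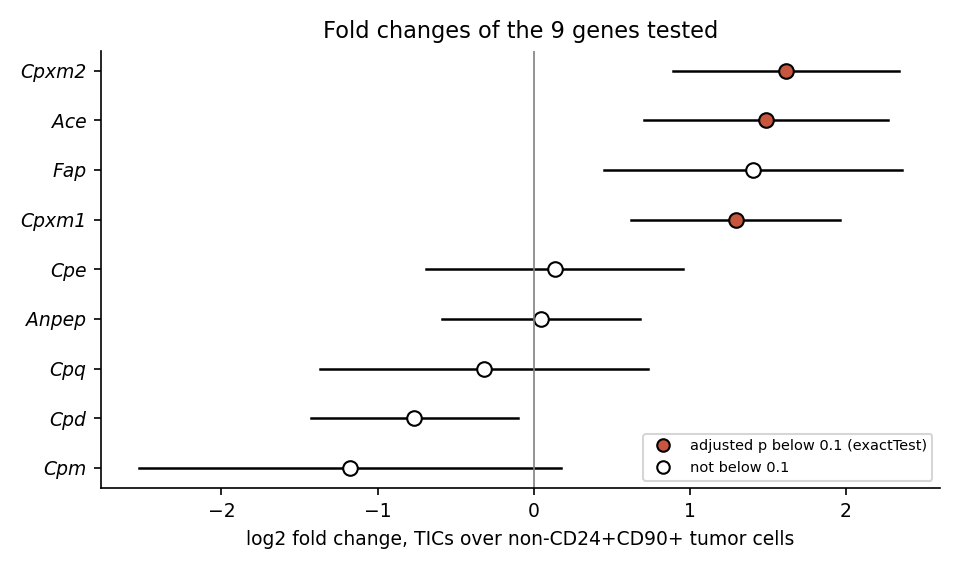
Log2 fold changes of the 9 genes tested, TICs over non-CD24+CD90+ tumor cells, as points with 95% intervals from the standard error of the negative binomial fit. Filled points mark an adjusted p below 0.1 in exactTest: Cpxm2 at 1.62, Ace at 1.49 and Cpxm1 at 1.29. The interval of Fap (0.45 to 2.36) also lies above 0 but its adjusted p was 0.20.

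Levels were compared between genes as CPM per kilobase of annotated exon. In non-CD24+CD90+ tumor cells Anpep was the most abundant at 58.1 ± 15.9 CPM per kb (SD, n = 3), followed by Cpe, Cpxm1, Cpd, Cpxm2, Ace, Cpm, Cpq, Fap and Dpp4. In TICs Cpxm1 stood first at 87.7 ± 30.3 CPM per kb, followed by Anpep, Cpe, Cpxm2, Ace, Cpd, Fap, Cpq, Cpm and Dpp4. Most neighbours in these orders overlapped between libraries. The ranges were separate only between Cpd and Cpxm2 and between Fap and Dpp4 in the comparison group, and between Cpm and Dpp4 in TICs. The summed level of the 10 genes was 175, 258 and 253 CPM per kb in the comparison group and 305, 303 and 366 CPM per kb in TICs. Cpd made up 13.1% to 17.6% of this sum in the comparison group and 3.67% to 9.66% in TICs, without overlap. As its CPM was lower and the sum higher in every TIC library, this separation was fixed in advance. Cpm also had a lower share in every TIC library (2.72% to 7.98% against 0.297% to 2.14%). The sum under these shares was higher in every TIC library, so a lower share need not mean a lower level. The CPM of Cpm itself overlapped between the groups. Ace made up 3.64% to 5.93% against 6.33% to 11.3%, and Cpxm2 5.45% to 7.36% against 8.84% to 18.1%. The shares of Cpxm1, Cpe, Fap and Anpep overlapped between the groups.

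**Figure D3:**
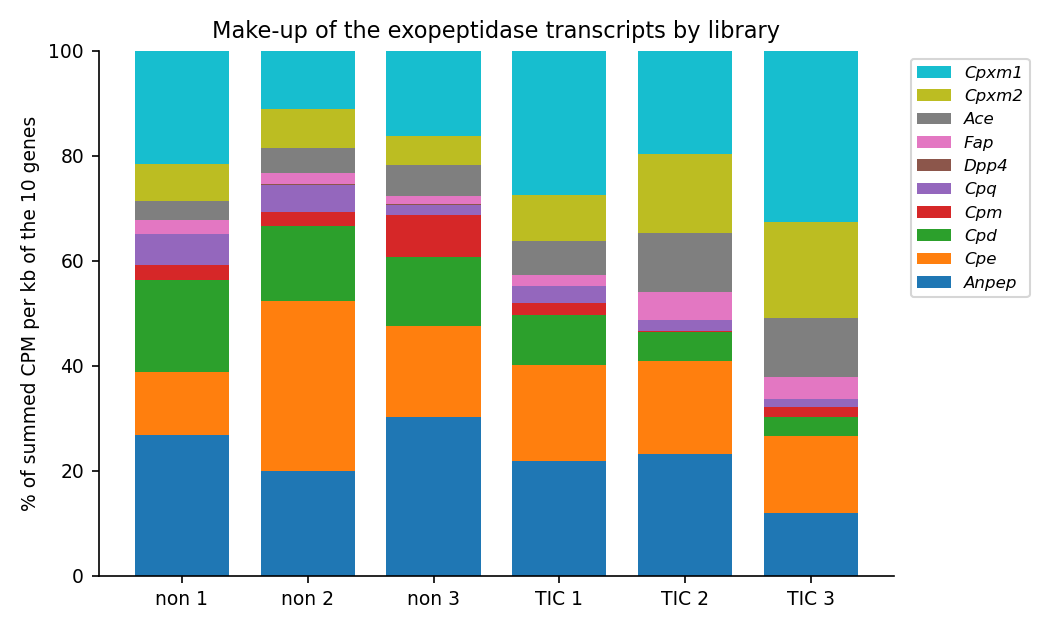
Share of each gene (percent) in the summed CPM per kb of the 10 genes, 1 bar per library, with non for non-CD24+CD90+ tumor cells. Ace, Cpxm1, Cpxm2 and Fap together take 25.3% to 34.9% of the bar in the comparison group and 44.8% to 66.3% in TICs. Their joint share is largest in TIC replicate 3. These are the genes of the set whose CPM was higher in every TIC library than in every comparison library. That choice favours a larger joint share in TICs, so the separation of these ranges is no further evidence of a difference.

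Of the lists of markers of other cell types, the fibroblast list had most of its members called higher beside these genes. All 10 of 10 fibroblast markers were tested, and 8 were called higher in TICs by exactTest, 8 by DESeq2, 5 by the quasi-likelihood test and 0 with tagwise dispersions without a trend, which called 0 members of each marker list. Their summed level was 2995 to 3393 CPM in the comparison group and 7933 to 11290 CPM in TICs. Over all genes tested, exactTest called 1.36% higher. In either direction DESeq2 called 2.51%, the quasi-likelihood test 0.41% and the fit without a trend 0.984%, so 0 calls among 10 genes is close to these shares. An unadjusted p below 0.05 in exactTest was reached by 7.85% of all genes tested. For pericytes and smooth muscle 1 of 10 was called by exactTest (Rgs5, log2 fold change 1.45, adjusted p = 0.00047 from edgeR's exactTest), with sums of 543 to 678 CPM against 965 to 1467 CPM. For endothelium 0 of 10 were called by exactTest, by the quasi-likelihood test or by DESeq2, although 4 had an unadjusted p below 0.05 in exactTest and the sums were 160 to 185 CPM against 215 to 717 CPM. TIC replicate 3 had the highest endothelial and adipocyte sums, and without it the ratio of the group means fell from 2.401 to 1.55 for the endothelial sum and from 6.58 to 3.57 for the adipocyte sum. None of the markers in these 3 lists was at 0 in all libraries. Among 10 leukocyte markers 4 were tested, and Lyz2 and Cd74 were called higher by exactTest and DESeq2 but not by the quasi-likelihood test. The other tested markers, Csf1r and Cd68, had log2 fold changes of -1.69 and -0.31 (adjusted p = 1.0 each in exactTest), and Adgre1 and Cd3e were at 0 throughout. The leukocyte sums were 72.7 to 104 CPM against 208 to 254 CPM, and without Lyz2 and Cd74 they overlapped, at 17.4, 23.8 and 12.4 CPM in the comparison group and 28.1, 5.83 and 5.94 CPM in TICs. Of 8 adipocyte markers only Fabp4, which endothelium also expresses, was tested and it was called higher, with sums of 56.6 to 144 CPM against 192 to 1229 CPM and with Adipoq, Lep, Plin1 and Retn at 0. Luminal epithelial markers summed to 6900 to 7255 CPM in the comparison group and to 4971 to 5184 CPM in TICs, with 0 of 9 tested called by exactTest or the quasi-likelihood test, 2 called by DESeq2 and 2 at an unadjusted p below 0.05 in exactTest. The sums of 6 basal markers overlapped (455 to 1011 CPM against 367 to 598 CPM).

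Set against the summed fibroblast list, a ratio chosen after the values were seen, the higher genes no longer separated the groups. Most of this sum came from 2 of the 10 markers, the collagen genes Col1a1 and Col1a2. Their means were 1622 and 662 CPM in the comparison group and 4718 and 2666 CPM in TICs. The ratio is therefore mainly one to these 2 genes. Per 1000 CPM of summed fibroblast markers, Ace stood at 9.98 to 23.4 CPM in the comparison group and at 12.9 to 19.2 CPM in TICs. The corresponding ranges were 23.4 to 29.4 and 13.3 to 25.8 CPM for Cpxm1, 16.9 to 29.4 and 15.7 to 27.2 CPM for Cpxm2, and 6.96 to 9.93 and 4.57 to 8.40 CPM for Fap. Each of these pairs of ranges overlapped. The ranges of all 4 genes also overlapped per 1000 CPM of endothelial markers and per 1000 CPM of pericyte and smooth muscle markers, for example Cpxm2 at 94.1 to 134 against 129 to 209 CPM for the latter. For Ace and Cpxm2 the endothelial overlap came from TIC replicate 3 alone, which had the highest endothelial sum. There Ace stood at 303 CPM and Cpxm2 at 428 CPM, below the highest comparison libraries (444 and 549 CPM). The pericyte and smooth muscle overlaps also came from a single TIC library, replicate 2 for Cpxm1 and replicate 1 for the other genes. Per 1000 CPM of luminal markers all 4 genes were higher in every TIC library, for example Ace at 4.63 to 11.5 against 19.7 to 43.7 CPM. That outcome was fixed in advance, as each gene was higher and the luminal sum lower in every TIC library. It is therefore no further evidence. For Cpd the ranges per 1000 CPM of luminal markers overlapped (35.3 to 43.8 against 22.5 to 47.4 CPM). Against each of the other lists Cpd was lower in every TIC library. This too was fixed in advance, as Cpd itself was lower and the sums of these lists were higher in every TIC library. The ranges were 76.1 to 103 against 9.90 to 31.0 CPM for fibroblast markers and 409 to 471 against 76.2 to 255 CPM for pericyte and smooth muscle markers. For endothelial markers they were 1379 to 1924 against 156 to 1141 CPM. The part of these cell types in the differences of the 4 genes and of Cpd was not tested.

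**Figure D4:**
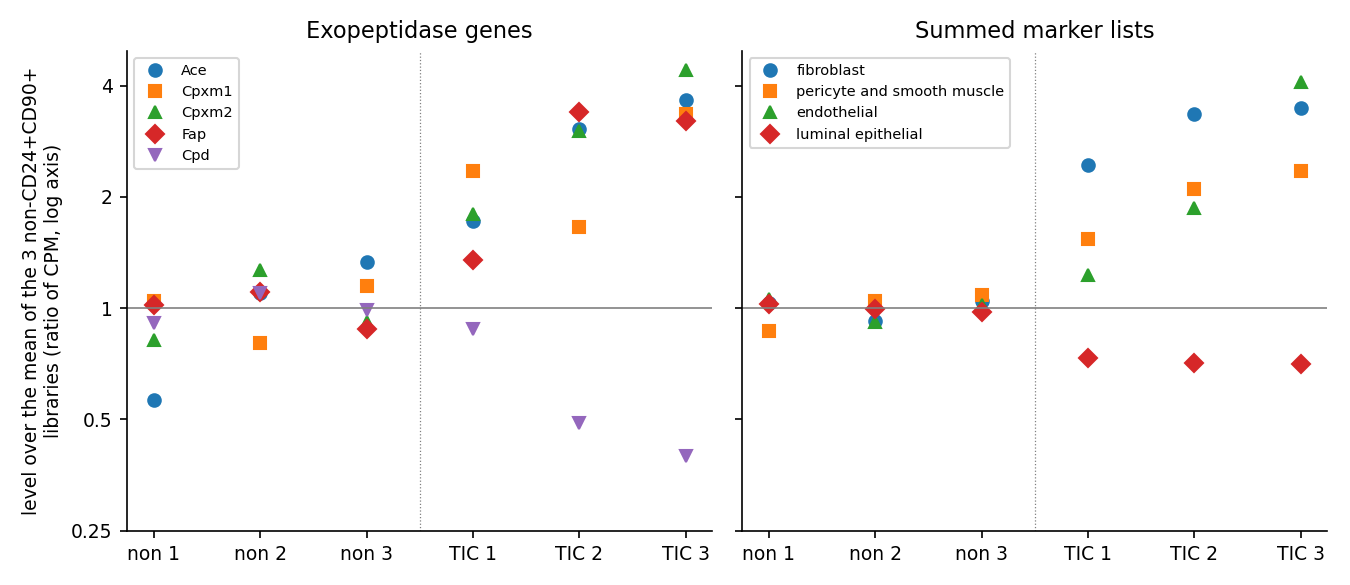
Level in each library divided by the mean of the 3 libraries of non-CD24+CD90+ tumor cells (log axis), for 5 of the genes on the left and for the summed CPM of 4 marker lists on the right. The fibroblast sum and Ace, Cpxm1, Cpxm2 and Fap lie above 1 in each TIC library, and the luminal sum and Cpd lie below 1.

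No further exopeptidase on the lists used here was called. Of 52 further carboxypeptidases, dipeptidyl peptidases and aminopeptidases, 12 had no count in any library and 31 were tested. Of these 31, 0 were called by exactTest, by the quasi-likelihood test or by DESeq2. Over all genes tested these called 1.55%, 0.41% and 2.51%, so that 0 of 31 is close to the share of all genes. Only 1 of the 31, Aebp1, had an unadjusted p below 0.05 in exactTest, beside 7.85% of all genes tested. The median log2 fold change of the 31 was -0.04. Aebp1, a secreted carboxypeptidase-like protein with a discoidin domain as in Cpxm1 and Cpxm2, had 110, 135 and 139 CPM in the comparison group and 176, 300 and 199 CPM in TICs (log2 fold change 0.81, SE 0.32, adjusted p = 0.32 from edgeR's exactTest). Its groups did not overlap, and it was the only one of the 31 genes of which this was true. Over all genes tested, every TIC library was above in 7.69% and below in 7.55%, so 1 of 31 does not exceed these shares. Within the 17 other zinc carboxypeptidases of its family, 9 had no count in any library, among them the mast cell form Cpa3 and the pancreatic form Cpb1, and the log2 fold changes of the 4 tested ran from -0.38 for Agbl5 to 1.05 for Agtpbp1, both enzymes that trim glutamate from tubulin. The lysosomal serine carboxypeptidases and their relatives ran from -0.29 (Prcp) to 0.41 (Dpp7) over 4 genes tested. The other dipeptidyl, tripeptidyl and prolyl peptidases ran from -0.78 (Tpp1) to 0.52 (Tpp2) over 7 genes tested, and the other aminopeptidases from -0.76 (Metap1d) to 0.51 (Lta4h) over 16 genes tested.

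Partners and substrates held no called gene either. Over all 41388 genes, 58.5% had no count in any library, beside 30.8% of the 91 genes on the related lists. In the angiotensin and kinin system, 8 of 14 genes had no count in any library, including renin (Ren1) and both bradykinin receptors (Bdkrb1 and Bdkrb2). Of the 4 tested, angiotensinogen (Agt) had a log2 fold change of -0.87 (SE 1.02) and neprilysin (Mme), which also degrades kinins, of 0.66 (SE 0.84), and 0 of the 4 were called by any of the 3 tests or had an unadjusted p below 0.05 in exactTest. Of the 13 prohormone-processing genes that act beside Cpe and Cpd, the neuroendocrine convertases Pcsk1 and Pcsk2 were among 5 without a count, and 0 of 6 tested were called by any of the 3 tests. Pcsk5, a convertase of the constitutive secretory route, was above the comparison group in every TIC library (47.4, 63.8 and 28.2 CPM against 72.2, 117 and 98.8 CPM, adjusted p = 0.35 from edgeR's exactTest). Furin, which acts in the trans-Golgi network like Cpd, was below it in every TIC library (129, 185 and 177 CPM against 103, 103 and 107 CPM, adjusted p = 0.56 from edgeR's exactTest). These were the 2 of 6 with an unadjusted p below 0.05 in exactTest, which 7.85% of all genes tested reached. Every TIC library was above in 7.69% of all genes tested and below in 7.55%. Of the carboxypeptidase inhibitors Lxn and Rarres1 only Lxn was tested (log2 fold change -0.06, SE 1.31). Among the 10 peptide substrates of Dpp4, 6 were tested and 0 called by any of the 3 tests, from -0.17 for Npy to 1.89 for Cxcl10 on the log2 scale. Cxcl12, a chemokine that Dpp4 truncates, had 73.0, 59.6 and 38.8 CPM in the comparison group and 66.4, 122 and 150 CPM in TICs (log2 fold change 0.98, unadjusted p = 0.018, adjusted p = 0.40 from edgeR's exactTest), and its groups overlapped through TIC replicate 1. Over all related lists, 48 genes were tested, 0 were called by any of the 3 tests, and 4 had an unadjusted p below 0.05 in each. As exactTest called 1.55% of all genes tested, 0 of 48 is close to the share of all genes.

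The genes with the most similar profiles over the 6 libraries were found as those with the smallest root mean square distance between centred log2 CPM values, among 8739 genes with a mean of at least 10 CPM over the libraries. For Ace these were Rin3 (distance 0.15), Tk2 (0.18) and Lox (0.18), a lysyl oxidase that crosslinks collagen. For Cpxm1 they were the Wnt receptor gene Fzd1 (0.16), Sertad1 (0.17) and the matricellular gene Smoc2 (0.20), and for Cpxm2 they were Ablim1 (0.11), Cavin3 (0.17) and Wsb1 (0.17). For Fap they were Gas7 (0.12), the small proteoglycan gene Dcn (0.15), which is also in the fibroblast list, and the chemokine gene Cxcl14 (0.15). Dpp4 did not pass the filter and has no such list. The 6 points of a profile share the difference between the groups and the depth of each library.

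The calls also differed between tests. DESeq2 called the same 3 genes, Cpxm2, Cpxm1 and Ace, with adjusted p-values of 0.0019, 0.010 and 0.021, and 2.51% of all genes tested. The quasi-likelihood test of edgeR called 0 of the 9 genes and 0.41% of all genes tested, with adjusted p-values of 0.11 for Cpxm2, 0.16 for Cpxm1 and 0.21 for Ace, and 5 of the 9 genes had an unadjusted p below 0.05 in it. Exact permutation tests of the CPM of single genes gave p = 0.1 for Ace, Cpxm1, Cpxm2, Fap and Cpd (two-sided), the smallest p that 3 libraries against 3 allow. Each of the 3 calls was also lost when some single libraries were left out. Cpxm2 was called in 4 of 6 such fits, Cpxm1 in 2 and Ace in 2, and the log2 fold changes stayed between 1.02 and 1.91 for these genes.

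**Figure D5:**
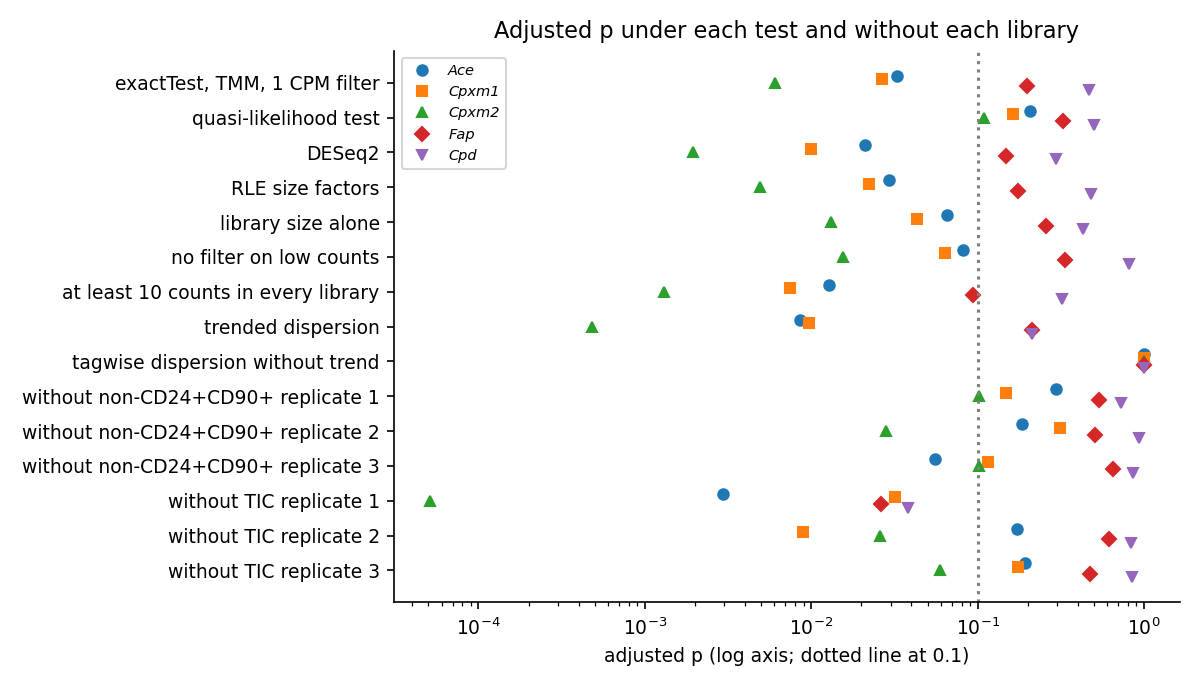
Adjusted p (log axis) of 5 genes under the reported fit, under 8 other tests, normalizations, filters and dispersion settings, and with each of the 6 libraries left out in turn, with the threshold of 0.1 as a dotted line. Cpxm2, Cpxm1 and Ace lie below 0.1 in 6 of these 8 settings and at or above it in the quasi-likelihood test and with tagwise dispersions without a trend (1.0). Fap and Cpd fall below it without TIC replicate 1, and Fap also with at least 10 counts in every library.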

How the data were processed

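RNA-seq libraries of 3 TIC and 3 non-CD24+CD90+ tumor cell pools were grouped by the sample descriptions. As given in the study's methods and the submitters' processing notes, the authors used Trimmomatic 0.32 for trimming, STAR 2.4.0 for alignment to GRCm38 and samtools 1.1 to keep uniquely mapped reads, then counted reads per gene with HTSeq. They deposited raw counts for 41388 Ensembl genes, without normalization. The annotation release, strand setting and overlap mode are not given in the sources used here. Reads shared by near-identical genes are absent from such counts. Symbols, coordinates and exon lengths came from GENCODE M21 (GRCm38), and 40254 genes had a symbol. The 167 symbols on the lists used here all matched, 1 of them (Aopep) through a RefSeq synonym.

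The 12192 genes above 1 CPM in 3 or more libraries were normalized by TMM and compared with the two-sided exactTest of edgeR 4.0.16 (R 4.3.3), the test named in the study's methods, using tagwise dispersions at edgeR's default trend (common dispersion 0.678). Benjamini-Hochberg adjustment ran over these genes, and an adjusted p below 0.1 was called. Standard errors came from the negative binomial fit. Other settings were edgeR's quasi-likelihood test, DESeq2 1.42.0, RLE size factors, library size alone, no filter on low counts, at least 10 counts in every library, trended dispersions, an adjusted p below 0.05, and each library left out, with the filter applied again. Tagwise dispersions without a trend (trend "none") were fitted first and called 0 members. The default replaced them after those member results were seen, because it is the tool's default for the named test, and with the number of genes called in an earlier analysis of these data, which the default matches, known. Simulated counts were also seen before this choice but give no ground for it, since their outcome depends on the dispersions they are drawn with. The fit without a trend is kept as an alternative chosen after seeing the data. The members and gene lists were chosen with earlier results of these data known, and Ace, Cpxm1 and Cpxm2 are on the study's own list of differing genes. Named genes were the 10 members, the extremes and calls of the related lists, marker genes, and the 3 nearest profiles of each called member and of Fap. Genes named beyond this rule (Aebp1, Pcsk5, Furin, Cxcl12, Lyz2, Cd74, Csf1r, Cd68, Fabp4 and the genes without counts) were chosen after their values were seen. With no label on separate animals, p-values measure the spread between these pools only, and no sequencing batch is named in the labels.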

Additional observations from a re-analysis of the deposited data

How the results depend on the processing

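The number of members called, 3 in the reported fit, was 0 in the quasi-likelihood test and 0 in exactTest with tagwise dispersions without a trend, a setting added after seeing the data. It ranged from 0 to 5 with 1 library left out: 0 without non-CD24+CD90+ replicate 1, 1 without replicate 2 (Cpxm2) or replicate 3 (Ace) of that group, 5 without TIC replicate 1 (Fap higher and Cpd lower in addition), 2 without TIC replicate 2 and 1 without TIC replicate 3 (Cpxm2). Requiring 10 counts per library gave 4 (Fap in addition), and the other settings gave 3. The number of related genes called was 0 in all settings with 6 libraries and ranged from 0 to 1 with 1 library left out (Cxcl12 without TIC replicate 1, log2 fold change 1.27, adjusted p = 0.078 from edgeR's exactTest). The number over all genes, 189 in the reported fit, was 50 in the quasi-likelihood test, 306 in DESeq2, 112 with no filter on low counts, 120 with tagwise dispersions without a trend and 116 at an adjusted p below 0.05, and ranged from 72 to 323 with 1 library left out. The cause of these shifts was not tested, except that the stricter threshold and the fits without a library hold fewer calls or fewer samples by construction. The log2 fold change of Anpep changed sign, to -0.009 with library size alone, and ranged from -0.077 to 0.294 with 1 library left out (-0.077 without non-CD24+CD90+ replicate 1, -0.034 without replicate 2, -0.021 without TIC replicate 1 and -0.076 without TIC replicate 2). That of Cpe ranged from -0.22 (without non-CD24+CD90+ replicate 1) to 0.745, and that of Cpq from -0.634 to 0.002 (without replicate 2 of that group). The signs of the other 6 genes tested were the same in all alternative fits. No paired analysis was possible because the labels give no replicate numbers shared by the groups. Low counts and frequent 0 counts limit what can be said of Dpp4 and the genes without counts, for which 0 counts do not show absence.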
